A study of Homo sapiens with 6 samples.

Results

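The p53 pathway was read here through 32 named genes: the regulators MDM2, MDM4 and PPM1D, the p53 relatives TP63 and TP73, and 27 genes known as transcriptional targets of p53 or as partners in its responses. The members were chosen by gene symbol. Probe sets that carry a single member symbol numbered 84 of the 54675 on the array, and they read 30 of the 32 genes. FDXR and TP63 were not analysed here. Each gene is described by its brightest probe set, called its main probe set, and other probe sets of the gene are named where they behaved differently.

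The series compared spheroids with monolayers of NCI-H226, an established human mesothelioma cell line, by genome-wide expression arrays. Spheroids were formed from 10000 cells each in poly-HEMA coated wells, without a matrix, and were kept for 24 hours. Monolayers of the same line grew attached to uncoated plastic. Each condition had 3 cultures that the labels call biological replicates, numbered 1 to 3, with 1 array per culture, and neither condition received a drug. All cultures come from 1 line, so the p-values describe the spread between its cultures only.

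p53 is a transcription factor that is held at a low level by MDM2, a ubiquitin ligase that marks it for degradation, and by MDM4, a relative of MDM2 that blocks its activity. DNA damage and other stresses free p53 from both, and it then switches on genes for cell cycle arrest, DNA repair and apoptosis. MDM2 and PPM1D are also targets of p53, which closes a negative feedback loop. In mesothelioma, loss of the CDKN2A locus, which encodes the MDM2 inhibitor p14ARF, is common.

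p53 binds DNA through a pair of adjacent copies of its consensus half-site, which has 10 bases and reads the same on both strands. RefSeq promoter windows of 300 bases (250 before and 50 after each annotated start, GRCh38.p14) were searched for a pair of half-sites with a gap of at most 1 base and at most 2 mismatches among the 20 positions. Such a pair was found in 469 of 35116 windows (1.34%), and in at least 1 window of 461 of 27305 genes (1.69%). Among the members it was found in 4 of the 29 genes with a window (13.8%). These genes are on the list because they are known targets or relatives of p53, so their share is a description. The 4 stretches are printed with the matched pair in capitals, because they show the sequence that the term p53 target refers to and because MDM2, DDB2, AEN and TP73 recur in the results.
DDB2, chr11:47214979-47214999, plus strand, 0 mismatches and a gap of 1 base, beginning at base 6 of the transcript: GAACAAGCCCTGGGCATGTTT
AEN, chr15:88621240-88621339, plus strand, 2 mismatches, beginning 34 bases before the start: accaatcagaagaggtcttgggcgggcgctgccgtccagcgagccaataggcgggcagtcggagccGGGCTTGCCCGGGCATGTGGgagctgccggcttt
MDM2, chr12:68808917-68809016, plus strand, 2 mismatches, beginning 94 bases before a start inside the gene: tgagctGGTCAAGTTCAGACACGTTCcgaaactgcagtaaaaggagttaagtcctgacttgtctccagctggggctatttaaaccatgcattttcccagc
TP73, chr1:3690572-3690671, plus strand, 2 mismatches, beginning 76 bases before the start: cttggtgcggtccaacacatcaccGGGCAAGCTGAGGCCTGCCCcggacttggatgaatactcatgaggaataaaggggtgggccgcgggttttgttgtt
A gene can have several annotated starts, and the start named beside a stretch is that of its window, not always the gene's first. The DDB2 pair is 1 of only 7 windows (0.0199%) that matched the consensus at every position. The windows of the 8 members whose main probe set passed the test below held no such pair, which says only that these letters are not in these windows.

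The arrays were scaled by their authors to a common mean, and every array had a trimmed mean signal of 150.0. The median signal was 15.56, 18.05 and 15.19 in spheroids 1 to 3, against 14.65, 14.62 and 14.72 in monolayers 1 to 3. All fold changes are therefore differences of log2 signals measured from each array's own median. The mesothelial transcription factor WT1 was read at 1811 to 2009 in spheroids and 1347 to 1845 in monolayers. Calretinin (CALB2), another mesothelial marker, was uneven among the monolayers, at 2238, 1317 and 1765 in spheroids 1 to 3 and 1582, 163 and 83.6 in monolayers 1 to 3. The 3' to 5' signal ratio of ACTB, a measure of RNA integrity, averaged 1.175 ± 0.0603 in spheroids and 1.094 ± 0.0123 in monolayers (SD, n = 3 each; exact permutation test, two-sided, p = 0.1, adjusted p = 0.2 over 2 ratios, with 0.1 the smallest p that 3 against 3 allows). Marker sets of leukocytes (4 of 6 genes read), endothelium (5 of 5) and fibroblasts (6 of 6) held 0 genes that passed limma's test at the 0.05 threshold, and 2, 1 and 0 of them were under an unadjusted p of 0.05. In the squamous set (6 of 7 read, summed signal 961 to 1166 in spheroids and 634.9 to 842 in monolayers) IVL rose by 1.73 (limma adjusted p = 0.0123). The set as a whole did not rise: 3 genes were positive and 3 negative, with a median log2 fold change of -0.036. Its dim KRT14 had -2.51, which did not pass (limma adjusted p = 0.0974). In the mesothelial set (7 of 7) PDPN rose by 1.10 (limma adjusted p = 0.0396), while THBD had a log2 fold change of -1.24 that did not pass (limma adjusted p = 0.109). The part of these cell type markers in the p53 results was not tested.

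Members of the p53 pathway differed in both directions between spheroids and monolayers. Of the 30 genes read, 2 were upregulated in spheroids (DRAM1 and FUCA1), 6 were downregulated (EPHA2, POLH, PIDD1, PPM1D, TP53I11 and PLK2) and 22 did not pass at a Benjamini-Hochberg adjusted p under 0.05 by limma. That is 6.67% up and 20% down, against 3.88% up and 9.22% down over all 19775 genes. Because 27 of the 30 members lay above the median signal level, where calls are more frequent, the closer background is 5.76% up and 14.5% down over the genes above that level. The members' shares lay near this background, so the count itself is no result about the pathway. The groups did not overlap after centring for 12 of the 30 members, against 32.3% of all genes and 43.4% of genes above the median level. The members' median log2 fold change was -0.19, against -0.06 for all genes, with 19 members negative and 11 positive. Over the 84 probe sets, 4 were upregulated (4.76%, background 2.78%) and 10 were downregulated (11.9%, background 6.65%). Of the 84, 33 had an unadjusted p under 0.05, against 12292 of all 54613. In 31 the groups did not overlap after centring (background 27.8%). But 69 of the 84 lay above the median level, against 27307 of all 54613, so these counts are no result about the pathway either. Tested only above that level, 4 of 69 rose and 15 fell, against 1884 and 4541 of 27306. The calls lean on limma's mean-variance trend: without it 0 member genes passed, and the methods' t-test called 1. In these bulk cultures, fewer cells that express a gene and less RNA per cell cannot be told apart.

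**Figure D1:**
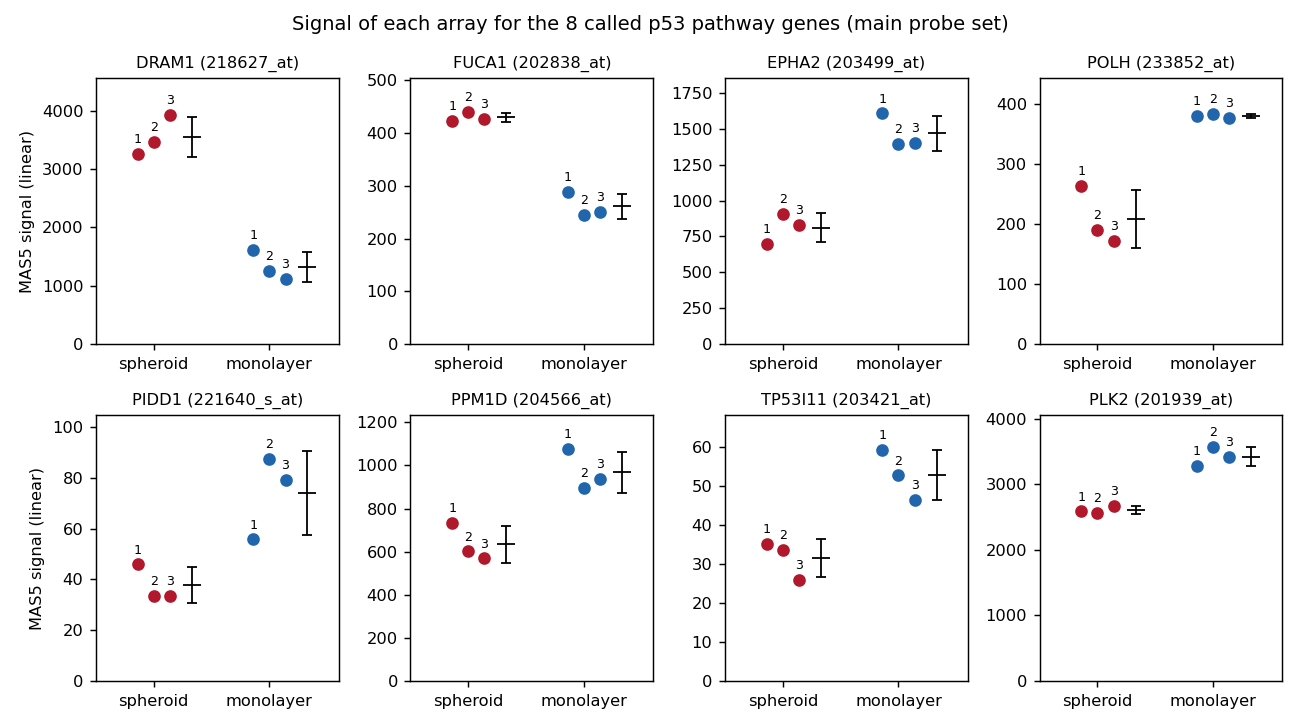
Signal in every array of the members whose main probe set passed the test, on a linear axis from 0, with spheroids left of monolayers; points are arrays numbered by replicate, and the lines beside them are the group mean and its SD. DRAM1 and FUCA1 lie higher in all 3 spheroids, and the other 6 genes lie lower in all 3 spheroids than in any monolayer.

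DRAM1 was the member with the strongest upregulation. It encodes a lysosomal membrane protein that p53 induces and that promotes autophagy. Its signal was 3262, 3465 and 3919.8 in spheroids 1 to 3, against 1614, 1257 and 1112 in monolayers 1 to 3. Every spheroid exceeded the highest monolayer by a wide margin. The log2 fold change was 1.29 ± 0.18 (SE, n = 3 each), a 2.44-fold upregulation (limma adjusted p = 0.00294), and it passed with any single array left out.

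FUCA1 also rose. It encodes the lysosomal fucosidase that trims fucose from glycoproteins, so both members that rose encode proteins of the lysosome. Other lysosomal genes were not examined here, and a shared change of such genes was not tested. FUCA1 was read as follows. The signal was 422, 439 and 427 in spheroids 1 to 3, against 288, 245 and 249.8 in monolayers 1 to 3. The spheroids lay close together and above all monolayers, with a log2 fold change of 0.58 ± 0.13 (SE, n = 3 each; limma adjusted p = 0.0283). The call rested on the full set of arrays: the log2 fold change was 0.54 without monolayer 2, 0.54 without monolayer 3, 0.56 without spheroid 1 and 0.53 without spheroid 3, and none of these 4 passed. A second, dim FUCA1 probe set had a log2 fold change of 0.73 that did not pass.

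EPHA2 gave the firmest downregulation. It encodes a receptor tyrosine kinase for ephrin-A ligands, which are displayed on neighbouring cells. Its signal was 699.9, 905 and 831 in spheroids 1 to 3, against 1606, 1392 and 1402 in monolayers 1 to 3. All spheroids were below all monolayers, and the log2 fold change was -1.0 ± 0.13 (SE, n = 3 each; limma adjusted p = 0.00242). It passed with any single array left out, and was the only member that the methods' t-test also called after Benjamini-Hochberg adjustment.

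Among the genes of DNA repair and nucleotide supply, POLH fell and the others did not pass. POLH encodes DNA polymerase eta, which copies past ultraviolet lesions. Its signal was 264, 190.2 and 173 in spheroids 1 to 3, against 381, 384 and 377 in monolayers 1 to 3. The monolayers were nearly identical and the spheroids all lay below them, with a log2 fold change of -1.03 ± 0.19 (SE, n = 3 each; limma adjusted p = 0.00964). A second probe set, 222879_s_at, read 105, 65.8 and 78.6 in spheroids and 166, 191 and 174 in monolayers, and fell by 1.26 on the log2 scale (SE 0.22, limma adjusted p = 0.0093). Both POLH calls held with any single array left out, and 5 of the 6 POLH probe sets were negative.

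The remaining repair genes did not pass and lay on both sides of 0. DDB2, whose protein recognises ultraviolet damage for nucleotide excision repair and whose promoter holds the exact p53 pair printed above, read 638, 503 and 544 in spheroids 1 to 3 and 518, 676 and 688 in monolayers 1 to 3. The groups overlapped (log2 fold change -0.30 ± 0.18, SE; limma adjusted p = 0.379). XPC, the other damage sensor of that repair route, read 793, 628 and 811 in spheroids and 454, 571 and 580.2 in monolayers, and overlapped after centring (0.33 ± 0.19, adjusted p = 0.355 by limma). RRM2B, a ribonucleotide reductase subunit that supplies nucleotides for repair, read 531, 624 and 635 in spheroids and 355, 395 and 472 in monolayers. The RRM2B groups did not overlap, but the log2 fold change of 0.41 ± 0.15 did not pass (limma adjusted p = 0.141).

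Of the regulators of p53, PPM1D fell on both of its probe sets. Its protein, WIP1, is a phosphatase that switches off p53 and the damage kinases above it. The main probe set read 732, 601 and 568 in spheroids 1 to 3, against 1075, 894 and 936 in monolayers 1 to 3. Every spheroid was below every monolayer (log2 fold change -0.76 ± 0.16, SE, n = 3 each; limma adjusted p = 0.0177). The second, 230330_at, read 34.8, 36.6 and 41.4 in spheroids and 80.8, 58.1 and 56.0 in monolayers, and fell by 0.92 (SE 0.23, limma adjusted p = 0.0412). The main probe set did not pass without monolayer 2 (-0.81), monolayer 3 (-0.79), spheroid 2 (-0.65) or spheroid 3 (-0.73). The second did not pass with any 1 of the 6 arrays left out (-1.04 to -0.75).

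MDM2 gave different answers on different probe sets. Its main probe set read 2223, 2052 and 2300.1 in spheroids 1 to 3 and 2234, 2628 and 2466 in monolayers 1 to 3, and the log2 fold change of -0.30 ± 0.15 did not pass (limma adjusted p = 0.279). Another probe set, 225160_x_at, whose suffix marks probes that can match more than 1 transcript, read 504, 405 and 484 in spheroids 1 to 3, against 575, 2049 and 1922 in monolayers 1 to 3. It fell by 1.65 on the log2 scale (SE 0.43, limma adjusted p = 0.0434), but monolayer 1 lay beside the spheroids and far from the other monolayers. The fold change was -2.25 without monolayer 1, and it did not pass without monolayer 2 (-1.33), monolayer 3 (-1.38), spheroid 1 (-1.74), spheroid 2 (-1.48) or spheroid 3 (-1.73). Of the 10 MDM2 probe sets 9 were negative, over a range of -2.05 to 0.42, and 225160_x_at was the only one that passed. Among the negative ones, 244616_x_at (-0.006) and 211832_s_at (-0.0045) lay practically at 0. The main probe sets of MDM4, PML, PERP and BTG3 also end in _x_at, so the same caution applies to them.

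MDM4, like MDM2, was divided among its probe sets. Its main probe set read 211, 216 and 162 in spheroids and 224, 193 and 201 in monolayers, which overlapped (log2 fold change -0.22 ± 0.15, SE; limma adjusted p = 0.439). Probe set 236814_at read 135, 158 and 156 in spheroids 1 to 3, against 199, 211 and 200.4 in monolayers 1 to 3. Here all spheroids were below all monolayers and the gene fell by 0.59 (SE 0.14, limma adjusted p = 0.0311), a call kept only without monolayer 1 among the arrays left out in turn (-0.56 without monolayer 2, -0.60 without monolayer 3, -0.55 without spheroid 1, -0.56 without spheroid 2 and -0.67 without spheroid 3). The 6 MDM4 probe sets were 3 positive and 3 negative. TP73, the p53 relative whose promoter stretch is printed above, was dim at 10.0, 20.2 and 7.28 in spheroids and 10.3, 10.9 and 8.54 in monolayers, below the median level of all probe sets. Its groups overlapped fully (0.06 ± 0.46, SE; limma adjusted p = 0.959).

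**Figure D2:**
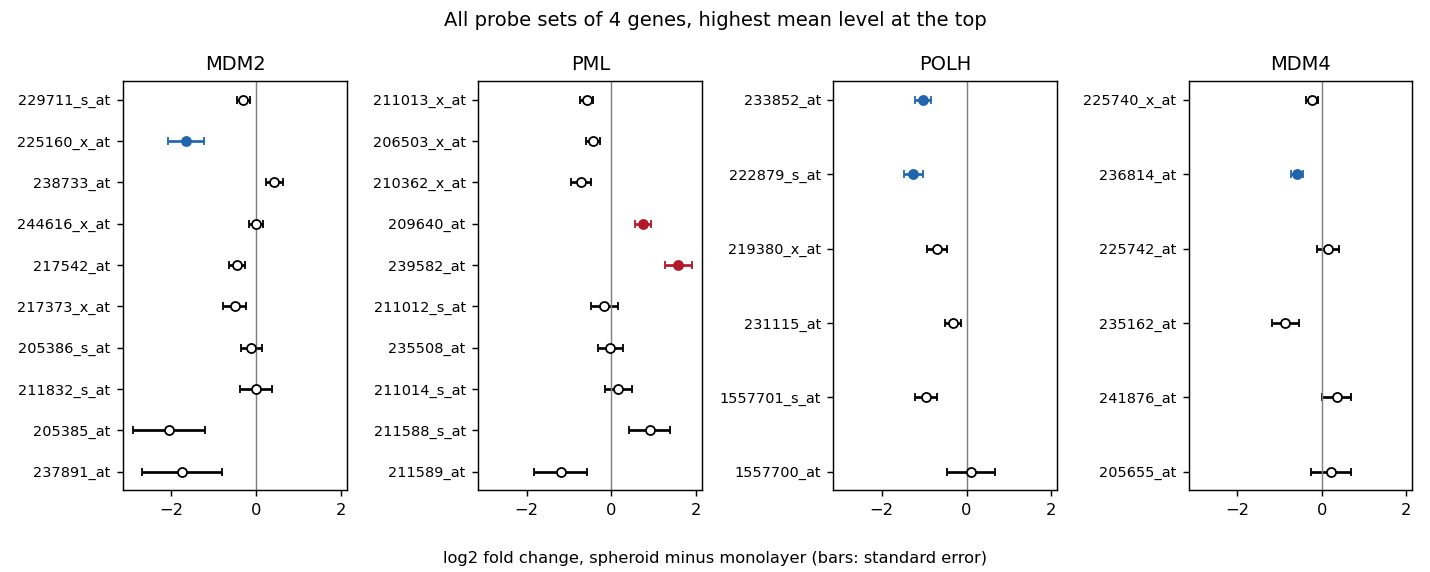
Log2 fold change of every probe set of MDM2, MDM4, PML and POLH with its standard error, spheroid minus monolayer, with the brightest probe set of each gene at the top; red points passed upward, blue points passed downward and open points did not pass. The MDM2 and POLH probe sets lie mostly at or below 0 with 1 above it in each gene, whereas those of MDM4 and PML fall on both sides.

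PML had probe sets that differed in direction. It encodes the scaffold of PML nuclear bodies, where p53 is modified, and it is also an interferon-induced gene with many spliced forms. The main probe set, 211013_x_at, read 136, 135 and 106 in spheroids 1 to 3 and 154, 187 and 168 in monolayers 1 to 3. These groups did not overlap, yet the log2 fold change of -0.59 ± 0.16 narrowly missed the threshold (limma adjusted p = 0.0502).
Probe set 239582_at read 132, 135 and 124 in spheroids 1 to 3, against 22.4, 56.3 and 47.9 in monolayers 1 to 3. It rose by 1.58 ± 0.32 (SE; limma adjusted p = 0.016), and all spheroids were far above all monolayers. Probe set 209640_at read 109.8, 124 and 93.7 in spheroids and 61.5, 67.8 and 48.6 in monolayers, and rose by 0.74 ± 0.19 (limma adjusted p = 0.0419). The first call was 1.18 without monolayer 1 and was lost without spheroid 1 (1.54), spheroid 2 (1.63) or spheroid 3 (1.57). The second was lost without monolayer 2 (0.84), monolayer 3 (0.60), spheroid 1 (0.70), spheroid 2 (0.72) or spheroid 3 (0.79). The 10 PML probe sets ranged from -1.19 to 1.58, with 4 positive and 6 negative.

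In the group of apoptosis and cell death genes, 1 of 12 rose (DRAM1), 2 fell and 9 did not pass. These 8.33% up and 16.7% down lie near the 5.76% and 14.5% of genes above the median level. PIDD1 encodes the death-domain scaffold of the PIDDosome, a complex that activates caspase-2. It read 45.9, 33.6 and 33.6 in spheroids 1 to 3, against 55.8, 87.5 and 79.1 in monolayers 1 to 3. All spheroids were below all monolayers (log2 fold change -1.11 ± 0.26, SE, n = 3 each; limma adjusted p = 0.0292). The second PIDD1 probe set did not pass (-0.74, adjusted p = 0.116 by limma). The PIDD1 call was lost without monolayer 2 (-0.98), monolayer 3 (-1.05), spheroid 2 (-0.96) or spheroid 3 (-1.08).
TP53I11, known as a p53-induced gene, read 35.1, 33.5 and 25.8 in spheroids 1 to 3 and 59.1, 52.6 and 46.3 in monolayers 1 to 3. It fell by 0.89 (SE 0.23, n = 3 each; limma adjusted p = 0.0422) without overlap between the groups. This call was lost with any 1 of the 6 arrays left out (-1.01 to -0.81), and the 3 TP53I11 probe sets were 1 positive and 2 negative.

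By main probe set, TRIAP1 and AEN came nearest among the members of this group that did not pass. AEN, a nuclease that degrades DNA in apoptosis, read 265, 324 and 333 in spheroids 1 to 3 and 306, 523 and 579 in monolayers 1 to 3. Monolayer 1 lay within the spheroids' range and monolayers 2 and 3 above it (log2 fold change -0.71 ± 0.23, SE; limma adjusted p = 0.0995). Without monolayer 1 the fold change was -0.99 and passed. TRIAP1, a small mitochondrial protein that restrains apoptosis, read 983, 951 and 1042 in spheroids and 1087, 1359.9 and 1464 in monolayers. Its groups did not overlap, and its fold change was -0.53 ± 0.16 (limma adjusted p = 0.0739) with all arrays and -0.65 without monolayer 1, which passed.

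The other apoptosis members did not pass. RPS27L, a ribosomal protein relative induced by p53, read 5757, 5704 and 5868 in spheroids and 5033, 5170.2 and 4772 in monolayers, and its centred fold change was 0.07 (limma adjusted p = 0.839). PERP, a p53-induced desmosome component, was positive on all 5 of its probe sets, from 0.06 to 1.70, and none passed. The fold changes of PHLDA3 (an inhibitor of AKT, -0.10), ZMAT3 (an RNA-binding zinc finger protein, -0.13) and TP53I3 (a quinone oxidoreductase, -0.28) did not pass, and their groups overlapped. A second ZMAT3 probe set, 227221_at, read 163, 144 and 167 in spheroids 1 to 3 and 204, 245 and 207 in monolayers 1 to 3. There the groups did not overlap, and the fold change of -0.62 ± 0.17 (SE) narrowly missed the threshold (limma adjusted p = 0.0556), while it passed without monolayer 1 (-0.66). EDA2R, a receptor of the TNF receptor family, read 3.16, 2.18 and 2.56 in spheroids and 12.4, 2.21 and 5.25 in monolayers. SPATA18, which acts in mitochondrial quality control, was as dim, at 5.42, 6.06 and 3.72 in spheroids and 1.15, 3.39 and 5.26 in monolayers. At such signals the standard errors were 0.73 for EDA2R and 0.69 for SPATA18, so a change of moderate size was not detectable in either.

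**Figure D3:**
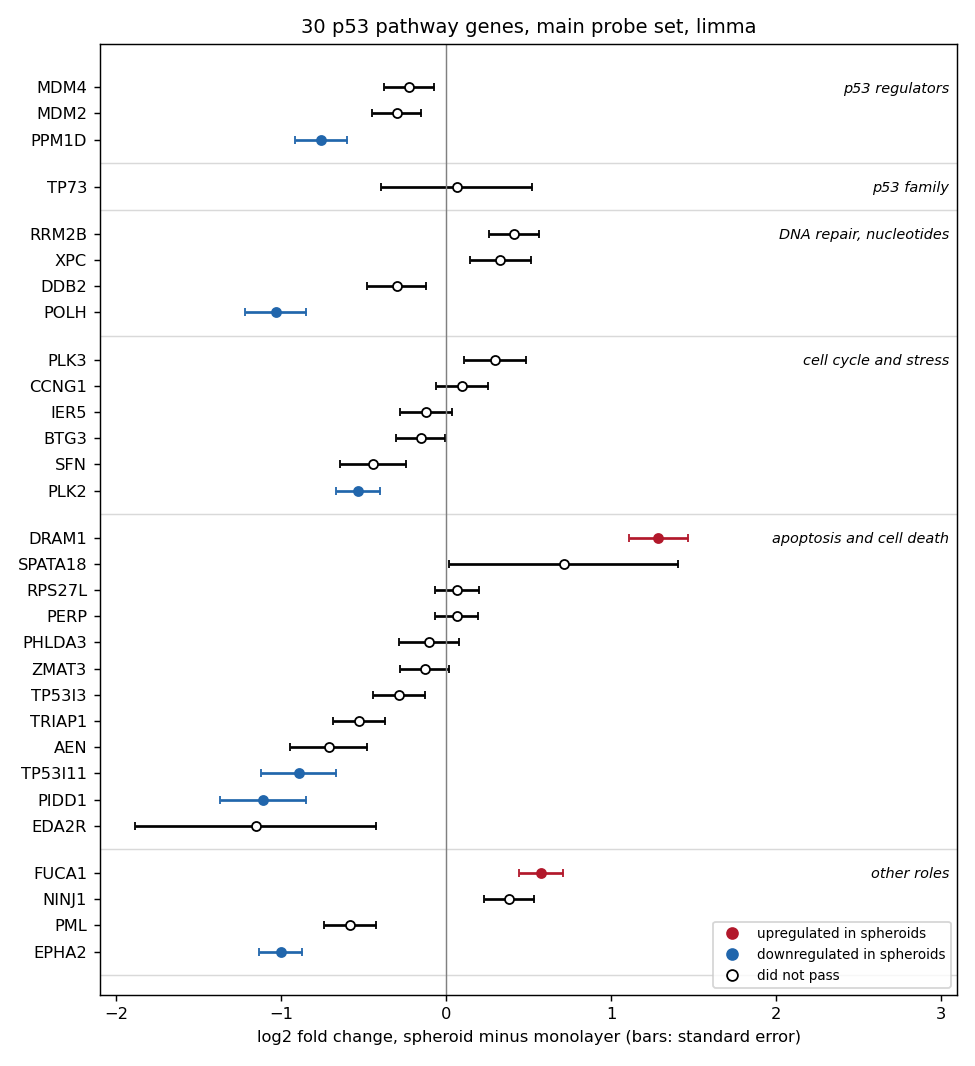
Log2 fold change of the main probe set of each of the 30 members with its standard error, spheroid minus monolayer, grouped by role; red points passed upward, blue points passed downward and open points did not pass. Members that passed and members that did not pass sit side by side in the groups of regulators, repair, cell cycle and apoptosis genes.

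Of the 6 cell cycle and stress members, PLK2 fell and 5 did not pass. PLK2 is a polo-like kinase induced by stress. It read 2586, 2563 and 2673 in spheroids 1 to 3, against 3276, 3571 and 3415 in monolayers 1 to 3. The groups were tight and did not overlap, and the log2 fold change was -0.54 ± 0.13 (SE, n = 3 each; limma adjusted p = 0.0368). It was lost without monolayer 2 (-0.50), monolayer 3 (-0.54), spheroid 1 (-0.56) or spheroid 3 (-0.60). PLK3, a relative of PLK2, read 106, 146 and 153 in spheroids and 87.0, 100.2 and 108 in monolayers (0.30, limma adjusted p = 0.412).

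SFN encodes 14-3-3 sigma, which holds cells before mitosis after damage. Its main probe set read 1767, 2783 and 2663 in spheroids 1 to 3 and 2321, 3359 and 3124 in monolayers 1 to 3, so replicate 1 was the lowest in each group (log2 fold change -0.44 ± 0.20, SE; limma adjusted p = 0.232). A second SFN probe set, 209260_at, read 223, 283 and 298 in spheroids and 276, 569 and 595 in monolayers, with a fold change of -0.92 (adjusted p = 0.0786 by limma) that became -1.27 without monolayer 1 and then passed. CCNG1, cyclin G1, read 2865, 2888 and 3025 in spheroids and 2066, 2844 and 2584 in monolayers (0.09, limma adjusted p = 0.797). IER5, an immediate early response gene, and BTG3, an antiproliferative gene, had fold changes of -0.12 and -0.15 that did not pass. Dimmer BTG3 probe sets differed in direction. Probe set 1556213_a_at had -1.04 without overlap between the groups (limma adjusted p = 0.166). Probe set 215425_at had 0.52 (limma adjusted p = 0.748), which became 1.45 without monolayer 1 and then passed. NINJ1, a cell surface protein that ruptures the membrane of dying cells, read 709, 691 and 771 in spheroids and 452, 566 and 494 in monolayers (0.38 ± 0.15, SE; limma adjusted p = 0.17).

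The direction of some members depended on the scaling. Taken as deposited, without centring, the median log2 fold change of all probe sets was 0.07, against -0.08 after centring and -0.01 after quantile normalization. The split of called member probe sets was 4 up and 10 down after centring, and 8 up and 6 down both as deposited and after quantile normalization. All probe sets moved alike, with 1519 up and 3630 down after centring, 2561 up and 2863 down as deposited, and 2455 up and 2967 down after quantile normalization. RRM2B, NINJ1, PERP (217744_s_at) and RPS27L (238935_at) passed upward under both of those scalings. TP53I11, MDM2 (225160_x_at), MDM4 (236814_at) and PPM1D (230330_at) passed under neither. IER5 turned sign as deposited, and PHLDA3 and ZMAT3 turned sign under both. DRAM1, FUCA1, EPHA2, POLH, PIDD1, PLK2 and the main PPM1D probe set kept direction and call under both.

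Genes of the wider pathway that are not members were read from lists. Of the 17 upstream regulators read, out of 18 listed, 0 rose, 2 fell and 15 did not pass, with a median log2 fold change of -0.03. The 11.8% that fell do not exceed the 14.5% of genes above the median level, and the split was 1 up and 2 down as deposited and 1 up and 1 down after quantile normalization. CHEK1, the kinase that relays replication stress, read 224, 223 and 181 in spheroids 1 to 3, against 379, 349 and 377 in monolayers 1 to 3 (-0.97 ± 0.13, SE; limma adjusted p = 0.00314). ATR, the kinase that activates CHEK1, read 336, 327 and 292 in spheroids and 425, 402 and 474 in monolayers (-0.59 ± 0.13, limma adjusted p = 0.0259). Both kinases of this step were lower in all spheroids than in any monolayer. ATM, another kinase of the list, went the other way without overlap between the groups, at 0.41, and did not pass (limma adjusted p = 0.142). Of the 17 regulators, 10 were negative and 7 positive.

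Further targets for arrest and stress (17 of 20 read) gave 2 that rose, 5 that fell and 10 that did not pass, with a median of -0.35. Their 11.8% up and 29.4% down stand against 5.76% and 14.5% of genes above the median level. TRIM22, a target of both p53 and interferon, read 229, 200.1 and 251 in spheroids 1 to 3, against 39.5, 58.5 and 48.6 in monolayers 1 to 3, and rose by 2.08 ± 0.21 (SE; limma adjusted p = 9.88e-04). LIF, a cytokine, rose by 1.13 (limma adjusted p = 0.0188). TIGAR, which lowers glycolytic flux, read 754, 908 and 996 in spheroids and 1226, 1465 and 1509 in monolayers, and fell by 0.81 (SE 0.16, limma adjusted p = 0.0134). FBXO22, PCNA, THBS1 and ASCC3 were the other 4 that fell. CDKN1A, the cyclin-dependent kinase inhibitor p21 and the best known arrest target, read 1698, 1762 and 2055 in spheroids 1 to 3 and 1258, 2122 and 1953 in monolayers 1 to 3. It overlapped fully, at -0.07 ± 0.21 (limma adjusted p = 0.904).

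Further targets for apoptosis (11 of 12 read) gave 0 that rose, 2 that fell and 9 that did not pass, with a median of -0.49. The 18.2% that fell stand against 14.5% of genes above the median level, and the split was 2 up and 1 down as deposited and 1 up and 1 down after quantile normalization. AIFM2 read 296, 378 and 478 in spheroids 1 to 3, against 615, 653 and 622 in monolayers 1 to 3 (-0.89 ± 0.19, SE; limma adjusted p = 0.0196). TNFRSF10A, a receptor for the death ligand TRAIL, read 71.6, 139 and 127 in spheroids and 166, 222 and 205 in monolayers (-1.0 ± 0.24, limma adjusted p = 0.0312). BAX (-0.35), FAS (-0.49) and PMAIP1 (-0.78), which act in the mitochondrial and death receptor routes, did not pass. TNFRSF10C went the other way, at 17.1, 17.4 and 14.3 in spheroids and 3.94, 6.76 and 4.44 in monolayers. These dim groups did not overlap, and the log2 fold change of 1.58 narrowly missed the threshold (limma adjusted p = 0.0582). Of the 11 genes, 9 were negative and 2 positive. Of the 15 cell cycle genes that p53 lowers through p21 and the DREAM complex, 14 fell (93.3%, against 14.5% of genes above the median level) and 0 rose, with a median of -1.58, and only E2F1 did not pass (-0.77, limma adjusted p = 0.0697). These genes act in mitosis and DNA replication. CDC20, which drives exit from mitosis, read 487, 445 and 304 in spheroids 1 to 3 and 1445, 1619 and 1494 in monolayers 1 to 3. All 3 spheroids lay far below the monolayers for CDC20.

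Monolayer 1 stood apart from the other monolayers in the p53 targets. It was the lowest of the 3 monolayers in 18 of the 30 members (60.0%), against 40.6% of all genes and 43.1% of those above the median level. Among the further targets it was the lowest in 12 of 17 for arrest and stress (70.6%) and in 10 of 11 for apoptosis (90.9%). The same array was the lowest in only 3 of the 17 upstream regulators and in 2 of the 15 genes lowered through DREAM. There it was the highest in 10 and in 11. These shares describe single arrays and were not tested. The stress-induced SESN2 read 149, 233 and 211 in spheroids 1 to 3 and 136, 340.2 and 335 in monolayers 1 to 3. PMAIP1 (NOXA), a mediator of apoptosis, read 578, 679.6 and 938 in spheroids and 717, 1347 and 1416 in monolayers. The secreted stress protein GDF15 read 2394, 2877 and 3347 in spheroids and 1544, 2834 and 2965 in monolayers. In each of these 3 genes, which were chosen after their values were seen, monolayer 1 was well below monolayers 2 and 3. Spheroid 1 was their lowest spheroid too. It was the lowest spheroid in 6 of the 30 members and 6 of the 17 arrest and stress targets (35.3%). In the further apoptosis targets spheroid 1 was the lowest in 7 of 11 (63.6%). Its share was 26.3% among all genes and 20.8% among those above the median level, and these shares were not tested either. TP53INP1, another stress-induced target, read 586, 359 and 469 in spheroids 1 to 3 and 58.4, 260.3 and 190.1 in monolayers 1 to 3, so there monolayer 1 was the lowest of its group and spheroid 1 the highest.

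The mesothelial markers also set monolayer 1 apart from monolayers 2 and 3. The summed signal of the 7 markers was 9116, 6447 and 7003 in spheroids 1 to 3 and 8617, 3153 and 2669 in monolayers 1 to 3. In this sum monolayer 1 stood with the spheroids, but not in every marker. KRT5 was 1845 in monolayer 1 and at most 910.5 in the spheroids, and THBD was 349 against at most 96.1. The part of monolayer 1 in the p53 results was not tested. Without it, 10 members passed (2 up and 8 down) in place of 8, the arrest and stress list gave 9 in place of 7, and the apoptosis list gave 6 in place of 2. Calls over all probe sets also increased without it, to 6577 in place of 5149. Among the spheroids, spheroid 2 was the lowest in 19 of the 30 members (63.3%), which lay at the 63.4% seen for all genes above the median level.

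**Figure D4:**
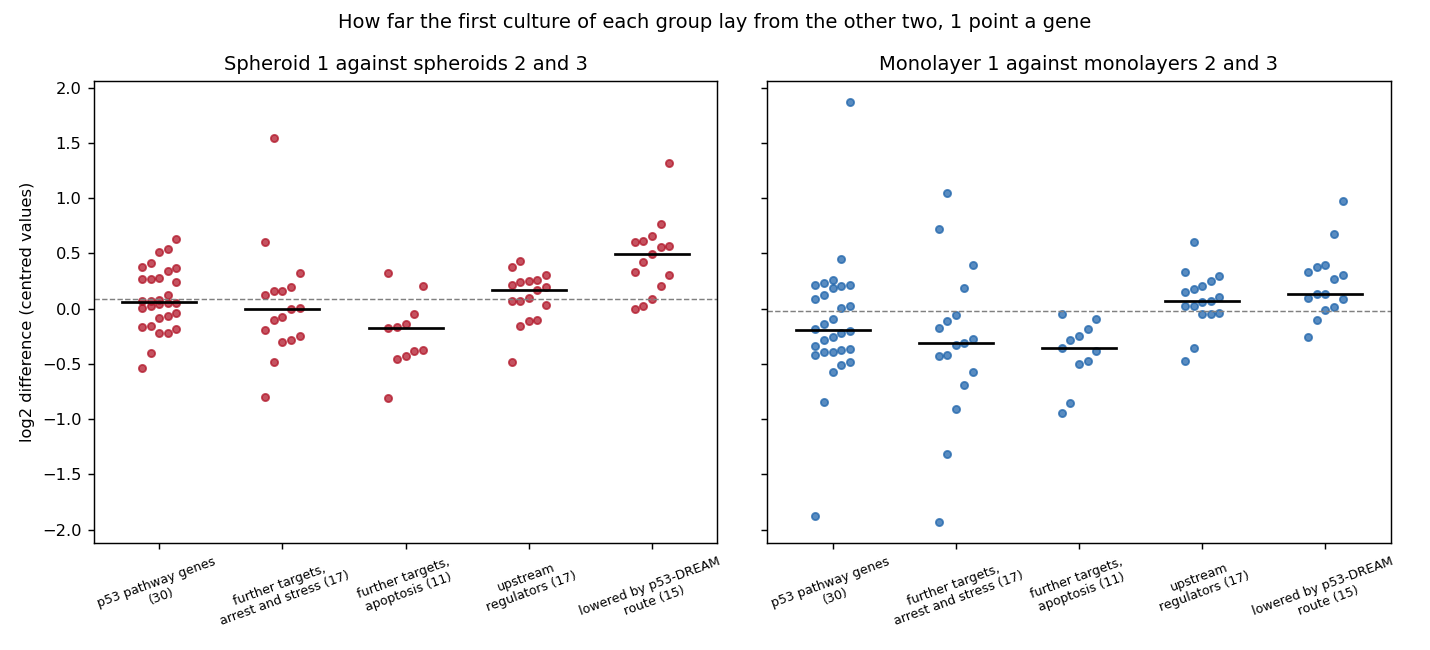
Log2 difference of replicate 1 from the mean of the other cultures of its group, for the 30 members and the other p53 pathway genes, with spheroids left of monolayers; each point is a gene, a bar is the median of its list and the dashed line is the median of all genes. The points of monolayer 1 reach further below 0 than those of spheroid 1, down to -1.93 for TP53INP1. Points also lie well above 0, up to 1.87 for the dim EDA2R in monolayer 1 and 1.54 for THBS1 in spheroid 1.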

How the data were processed

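RNA of 3 spheroid and 3 monolayer cultures of NCI-H226 was hybridised to Affymetrix Human Genome U133 Plus 2.0 arrays. The deposited values are linear signal intensities, which the submitters' processing notes credit to MAS5, and which the authors had scaled so that the mean without the lowest and highest 2% was 150.0 on every array. For arrays the number of probes and replicates, not a read depth, limits precision.

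Intensities were taken to log2 and centred on each array's median. The 62 control probe sets were left out, and limma 3.58.1 (R 4.3.3; lmFit, eBayes with a mean-variance trend) tested 54613 probe sets without covariates, with Benjamini-Hochberg adjustment over all of them and a threshold of 0.05. No table column was left unmapped to a culture (0 columns). Symbols came from the platform annotation, which gave 41097 probe sets 1 symbol, 1801 several and 11777 none. Only probe sets with 1 symbol were used, and a gene's main probe set is that with the highest mean level. The members, the lists and the naming rule were chosen with earlier results of these data known. The rule gave array values for members with a probe set that passed, MDM2 and TP73, and named CDKN1A and up to 4 genes of smallest adjusted p per further list. Array values of other members, and ASCC3, ATM, BAX, E2F1, FAS, GDF15, PCNA, PMAIP1, SESN2, THBS1 and TP53INP1, were added after their values were seen. The fit was tested on simulated data.

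Alternatives were no centring, quantile normalization, a floor on low signals, probe sets above the median level only, no trend, the methods' t-test, the replicate number as a block, each array left out, and other ways to read a gene from its probe sets. The authors' own comparisons were not used.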

Additional observations from a re-analysis of the deposited data

How the results depend on the processing

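Over 13 alternatives the 14 member probe sets that passed kept their direction in all 182 combinations and their call in 96. Among the 18 member probe sets followed over these alternatives (TP73 has no value above the median level), only TP73, which did not pass, turned sign: to -0.04 without monolayer 3 and -0.27 without spheroid 2, in a range that reached 0.34 without spheroid 3. Of the members outside this set, IER5, PHLDA3 and ZMAT3 turned with the scaling as given in the report, and CCNG1 had -0.04 without monolayer 1. Without limma's mean-variance trend, 457 of all probe sets passed in place of 5149, and 0 member probe sets, 0 member genes, 0 upstream regulators, 1 further arrest and stress target, 0 further apoptosis targets and 5 genes lowered through DREAM passed. The methods' t-test after adjustment called 1241, and 1, 1, 1, 2, 0 and 6 in the same order. Reading a gene by the median of its probe sets gave 5 member genes in place of 8, and reading it without probe sets ending in _x_at or _s_at gave 1 apoptosis target. The members' median was -0.0622 after quantile normalization and -0.0441 as deposited, in place of -0.19, and the cause was not tested beyond the shift of the array medians given in the report.

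With single arrays left out, calls ranged from 2438 to 6577 over all probe sets, 4 to 19 over member probe sets, 3 to 10 over member genes, 1 to 3 over upstream regulators, 2 to 9 and 0 to 6 over the further arrest and apoptosis targets, and 12 to 13 over the DREAM genes, while the members' median ranged from -0.26 to -0.16. Without monolayer 1 the count of member probe sets was 19, and without any other array it was 6 or fewer.

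Over all probe sets, the deviations of spheroids and monolayers with the same replicate number had correlations of 0.0909, -0.0131 and 0.0223. The highest of any pair was that of the replicate 1 cultures. In the 15 genes lowered through DREAM, monolayer 1 was the highest monolayer in 11 and spheroid 1 the highest spheroid in 13. In the 30 members, monolayer 1 was the lowest in 18 and spheroid 1 in 6. In the 11 further apoptosis targets, monolayer 1 was the lowest in 10 and spheroid 1 in 7. Whether cultures of the same number were handled together cannot be told from these values. With the replicate number as a block, 8 member genes, 16 member probe sets, 6133 of all probe sets and 4 further apoptosis targets passed. PLK2 was lost and AEN passed there. Dim members such as EDA2R, SPATA18 and TP73 limit what 3 arrays per group can resolve.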
